A study of Homo sapiens with 7 samples.

Results

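Intragenic H3K4me1 intervals inside H3K36me3 domains were examined in HCT116 cells, a human colorectal carcinoma line, using PIXUL-ChIP-seq. In this assay cells are crosslinked in a 96-well plate and their chromatin is sheared in the same wells by ultrasound before immunoprecipitation. Each mark had 1 library, made from a single well of 200000 cells, and the peak lists of H3K4me1, H3K4me3, H3K9Ac, H3K27me3, H3K36me3 and CTCF were used, whereas H3K27Ac was not analysed here. A single cell line and 1 library per mark give no replicate and no contrast between conditions, so no p-value is given. The members were the H3K4me1 intervals that lay more than 5 kb from every annotated transcription start site (TSS) of a protein-coding gene, touched an H3K36me3 interval and touched no H3K4me3 interval. Of the 50521 deposited H3K4me1 intervals, 30300 lay beyond 5 kb, 3727 of these touched H3K36me3, and 396 of the 3727 also touched H3K4me3, which left 3331 members (6.59% of the list). The members were thus selected on the calls of these 3 marks and the distance, whose values are therefore given as a description. H3K9Ac, CTCF, H3K27me3, the DNA sequence and the promoters of the host genes were not used. The members were set beside the intervals that met the rule except for H3K36me3, of which 11286 had their midpoint inside a protein-coding gene and 12832 outside.

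H3K4me1 marks enhancers and the flanks of promoters, and H3K4me3 marks active promoters. H3K36me3 is placed by SETD2, which travels with elongating RNA polymerase II, and therefore covers the bodies of transcribed genes and is strongest towards their 3′ ends. H3K9Ac is an acetylation of active promoters and enhancers, H3K27me3 is deposited by Polycomb repressive complex 2 and is largely exclusive with H3K36me3, and CTCF is a zinc-finger protein of insulators and chromatin loops. Enhancers also lie in the introns of transcribed genes, where H3K36me3 surrounds them. Transcription and enhancer activity were not measured here, so the intervals are named by their marks.

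Sequences were read from hg19 on its plus strand to show what these intervals hold at their midpoints. The AP-1 motif, bound by dimers of the FOS and JUN families, is TGACTCA on either strand. Windows printed here and below came only from members inside 1 coding gene alone and on chromosomes other than 8. The 3 windows of 300 bp that follow are among the 4 from such members under 2 kb wide with the highest H3K4me1 fold enrichment of those with an AP-1 match and no coding-gene exon in the window, and capitals mark every match to 1 of the 8 motifs searched.
ULK1, intron 13 of a gene for an autophagy kinase, chr12:132397158-132397457, AP-1 and SP/KLF matches: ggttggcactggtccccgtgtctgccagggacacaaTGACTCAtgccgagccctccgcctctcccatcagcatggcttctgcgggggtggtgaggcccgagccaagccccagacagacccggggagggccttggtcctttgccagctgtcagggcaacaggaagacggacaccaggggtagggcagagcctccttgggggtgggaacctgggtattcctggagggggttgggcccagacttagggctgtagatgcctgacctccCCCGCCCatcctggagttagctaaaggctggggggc
MTMR10, intron 10, chr15:31246465-31246764, AP-1 match: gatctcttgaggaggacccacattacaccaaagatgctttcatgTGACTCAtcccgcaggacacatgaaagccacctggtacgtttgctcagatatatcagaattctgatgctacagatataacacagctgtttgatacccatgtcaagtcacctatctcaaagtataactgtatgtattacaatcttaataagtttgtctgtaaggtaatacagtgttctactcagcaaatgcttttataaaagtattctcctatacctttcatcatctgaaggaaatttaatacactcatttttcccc
TAF1B, intron 12 of a gene for an RNA polymerase I factor, chr2:10054691-10054990, AP-1 match on the minus strand: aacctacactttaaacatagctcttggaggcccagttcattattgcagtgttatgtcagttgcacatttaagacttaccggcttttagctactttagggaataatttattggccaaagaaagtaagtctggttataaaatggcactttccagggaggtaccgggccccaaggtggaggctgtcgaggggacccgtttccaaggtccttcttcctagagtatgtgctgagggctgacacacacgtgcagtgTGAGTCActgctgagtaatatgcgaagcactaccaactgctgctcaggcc
The whole interval had an H3K4me1 fold enrichment of 8.28 at ULK1, 6.28 at MTMR10 and 6.15 at TAF1B. H3K36me3 covered 100% of the interval in ULK1, 67.6% in MTMR10 and 28.1% in TAF1B. H3K9Ac was called at ULK1 (fold enrichment 3.28), MTMR10 (3.06) and TAF1B (2.96).

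A further window shows a member in intron 4 of TCF7L2, the gene of the main nuclear effector of Wnt signalling in the colon, chosen as the TCF7L2 member with an AP-1 or TCF/LEF match. Its capitals mark a GATA motif (AGATAA) followed by a TCF/LEF motif (CTTTGAT).
TCF7L2, chr10:114773320-114773619: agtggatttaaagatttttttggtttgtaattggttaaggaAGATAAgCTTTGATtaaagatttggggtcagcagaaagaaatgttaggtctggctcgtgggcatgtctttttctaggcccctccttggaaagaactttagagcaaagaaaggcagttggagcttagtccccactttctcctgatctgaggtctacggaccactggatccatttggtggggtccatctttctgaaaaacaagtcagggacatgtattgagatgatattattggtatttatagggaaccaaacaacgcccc
The 12-base CTCF core, named here by its factor alone, is shown in capitals in windows of 30 bases. These came from the members eligible for printing, as stated above, with the highest CTCF fold enrichment and a core outside coding-gene exons.
EVPL, intron 18, chr17:74010448-74010477: gagctttggCCACTAGGGGGCcacatgggc
PIEZO1, intron 9, chr16:88803886-88803915: gccaggcggCCACCAGGGGGCagcaccggc
DNAJB12, intron 7, chr10:74097080-74097109: accgactctGCCCCCTGCTGGctgagaagg
APBB2, intron 10, chr4:40910864-40910893: gcaaactgtCCACTAGGGGGCaccatcacc
The CTCF fold enrichment was 22.0 in EVPL, 20.9 in PIEZO1, 20.5 in DNAJB12 and 18.9 in APBB2. In DNAJB12 the core was found on the minus strand.

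The members were wider than the other distal H3K4me1 intervals and only slightly more enriched. Their median width was 1764 bp (quartiles 924.5 and 3594.5 bp, range 300 to 73781 bp), against 1134.5 bp inside coding genes and 1063 bp outside them without H3K36me3. The median H3K4me1 fold enrichment, a linear ratio over the background of the peak caller, was 3.910 against 3.7998 and 3.841. A wider interval has more chances to touch another mark, and the share of distal intervals that met the rule rose from 7.78% of those under 1 kb to 10.9% at 1 to 2 kb, 15.8% at 2 to 4 kb and 30.5% above 4 kb. H3K9Ac, H3K27me3, CTCF and the AP-1, TEAD and TCF/LEF motifs were therefore also set out by width, and the other shares were not. In the members, width and H3K4me1 fold enrichment went together (Spearman correlation 0.62, n = 3331 intervals of 1 library), whereas the fold enrichments of H3K4me1 and H3K36me3 did not (-0.06).

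The term domain describes the H3K36me3 list only in part. The H3K36me3 intervals at the members had a median fold enrichment of 3.26, and just 5 members remained when the study's own limits for this mark (q-value below 1e-10 and fold enrichment above 5) were applied. Of the members, 45.4% lay wholly within 1 H3K36me3 interval, 47.1% crossed an edge of one, and 7.57% enclosed all that they touched. The median member was 76.9% covered, and the midpoint lay in H3K36me3 in 59.7%. Seen from the other side, 3382 of 40010 H3K36me3 intervals (8.45%) touched a member. Of these, 3027 touched 1 member, 280 touched 2, and 75 touched 3 or more, up to 11. The H3K36me3 intervals with a member were wider (median 4336.5 bp) than those without (1993 bp). The highest H3K36me3 values at members were 7.17 in intron 6 of ACOT7, an acyl-CoA thioesterase gene, and 6.998 in intron 10 of ABR. These H3K36me3 intervals measured only 539 bp in ACOT7 and 4554 bp in ABR. Both members, of 304 and 4153 bp, also touched CTCF (fold enrichment 5.74 and 17.4). At the 5 kb limit, the nearest members were in PYGB (5001 bp from a TSS), POLR2A (5007 bp) and RHOBTB3 (5026 bp), and the nearest intervals left out were in UTRN (4993 bp), DNAJC5 (4986 bp) and MAPKAP1 (4981 bp).

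Most members were intragenic. The midpoint of 2815 of 3331 (84.5%, 95% Wilson interval 83.2 to 85.7%) lay inside a protein-coding gene, against 51.4% of the members and both comparison groups together. Of the 2815, 87.8% lay in an intron of the canonical transcript, 3.13% in a coding exon, 4.30% in an untranslated region and 4.26% within the gene but outside that transcript. Among intronic members, 16.7% (15.3 to 18.2%) were in the first intron, whereas the share was 31.0% (30.1 to 31.9%) in intervals inside coding genes without H3K36me3. The members lay further along their genes, at a median of 56.4% of the gene length from the 5′ end against 47.7%. The final 25% of the gene length held 28.8% (27.2 to 30.5%) of the members and 23.5% (22.7 to 24.2%) of the others. The members were chosen through H3K36me3, which covers the bodies of transcribed genes and is strongest towards 3′ ends. Their share inside coding genes and their position in the gene are therefore not independent of that choice. Their host genes were also shorter (median 105755 bp against 176334 bp), and the part of gene length was not tested. A coding-gene exon was touched by 31.3% of the members and 12.2% of the others, which were also narrower. Of the 516 members outside coding genes, 39.9% lay in a long non-coding RNA gene and 34.9% within 10 kb past the 3′ end of a coding gene, and 30.0% in neither.

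**Figure D1:**
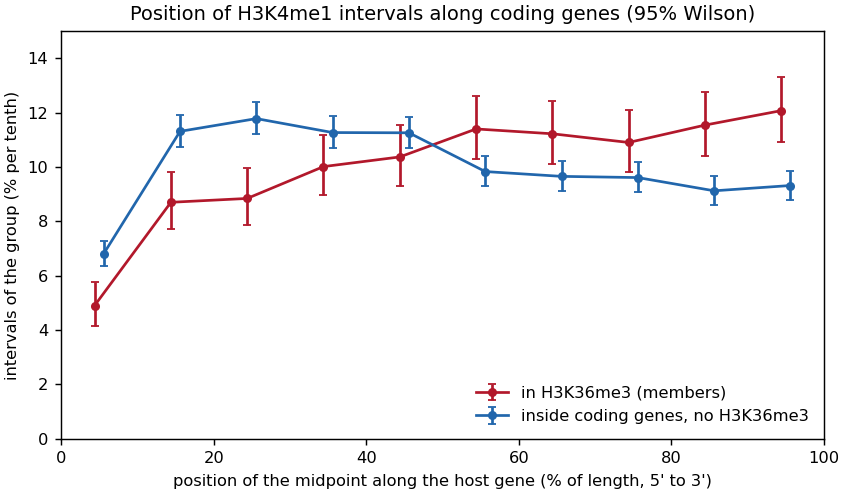
Share of H3K4me1 intervals (y axis, percent of each group) in each 10% of the host gene's length from 5′ to 3′ (x axis), for the 2815 members inside coding genes and the 11286 intervals without H3K36me3; bars are 95% Wilson intervals. The share of members reached 12.1% in the final 10%, where the other intervals had 9.32%. The position of members is not independent of H3K36me3, which the rule used.

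The genes that held members had active promoter marks. In all, 1817 protein-coding genes held at least 1 member, which is 9.01% of the 20162 annotated coding genes. Of the 10336 coding genes longer than 10 kb with H3K4me3 at a TSS, 1713 (16.6%) held at least 1. H3K4me3 was found within 1 kb of a TSS in 94.9% of the hosts (93.8 to 95.9%). It was found in 67.1% (65.6 to 68.6%) of the 3806 genes that held only intervals without H3K36me3, and in 62.9% of all coding genes. H3K27me3 at a TSS was least frequent in the hosts, with 3.03% (2.33 to 3.92%) of the hosts, 18.3% (17.1 to 19.5%) of the genes with only the other intervals and 11.7% of all coding genes. The hosts were long, with a median of 76.7 kb against 27.2 kb for all coding genes, and the genes with only the other intervals were longer still at 97.4 kb. The hosts were chosen through H3K36me3, a mark of transcribed genes, and the state of their promoters is not independent of that choice. Both kinds of interval occurred in 811 hosts.

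Around the midpoints, oriented by the direction of the host gene, H3K9Ac was more frequent near the members than near the intervals without H3K36me3. All 3331 members, with those outside coding genes, lay closer to a coding TSS than the 11286 intervals inside coding genes (median 20461 bp against 26822.5 bp). Intragenic members lay in shorter genes (median 105755 bp against 176334 bp). The values that follow use only the 2815 intragenic members, and the part of these differences in them was not tested. At 10 kb upstream, 19.4% of the positions were in H3K9Ac around members and 8.39% around the others. The values at 10 kb downstream were 12.3% and 6.46%. H3K4me3 covered 6.07% and 2.26% of the positions at 10 kb upstream, and 1.56% and 1.04% at 10 kb downstream. At the midpoint itself H3K9Ac was present in 41.8% and 32.0%. The members were wider, and these midpoint shares were not set out by width. H3K36me3 at 20 kb upstream and 20 kb downstream of members was 36.02% and 44.05%, so that coverage was higher on the 3′ side, and it was 61.5% at the midpoint.

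**Figure D2:**
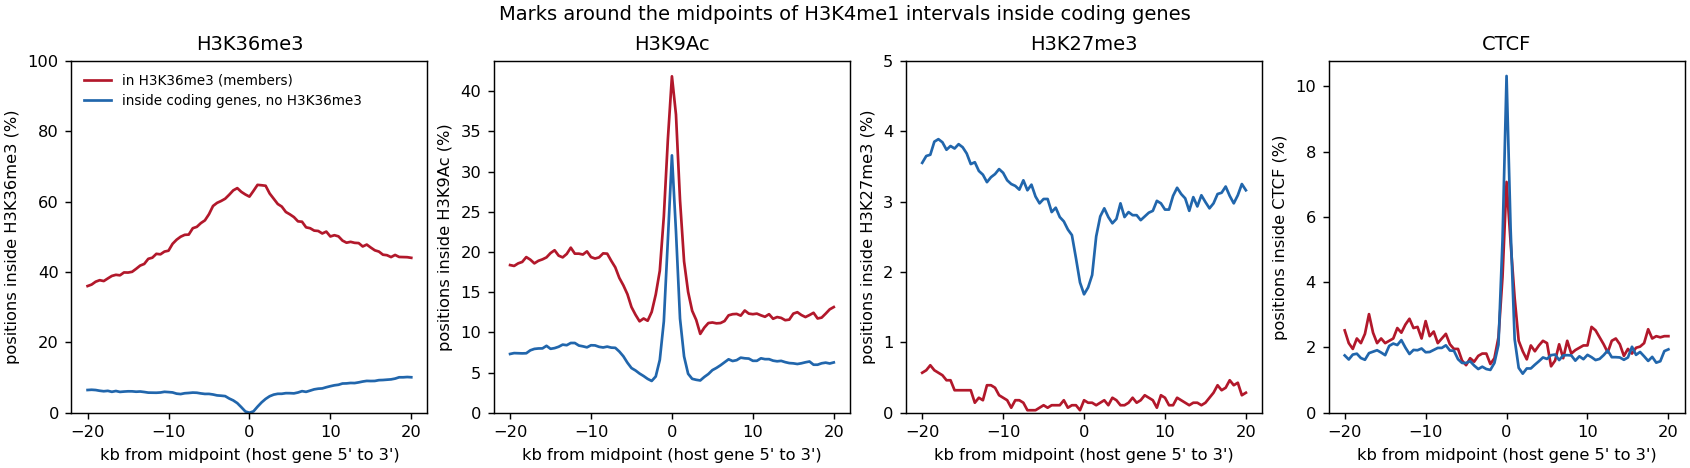
Percent of positions inside an interval of H3K36me3, H3K9Ac, H3K27me3 or CTCF (y axes) against the distance in kb from the midpoint of H3K4me1 intervals inside coding genes (x axes, host gene oriented 5′ to 3′), for 2815 members and 11286 intervals without H3K36me3. H3K36me3 was used by the rule and lies at 61.5% of the members' midpoints, H3K9Ac peaks at 41.8% and 32.0%, and H3K27me3 at the members' midpoints is 0.178% against 1.68%. The members were wider, and the values are not set out by width. H3K27me3 at the members is not independent of H3K36me3, which the rule used.

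H3K27me3 was rare at the members. It was called at 16 of 3331 members (0.480%, 0.296 to 0.779%), against 3.22% (2.91 to 3.56%) of the intervals inside coding genes and 4.75% (4.40 to 5.14%) of those outside. The order was the same in each of the 4 width classes, and the members' interval lay below both others in each of them. Under 1 kb the shares were 0.435%, 2.86% and 4.64%, and above 4 kb they were 0.676%, 4.30% and 6.67%. The members were chosen through H3K36me3, with which H3K27me3 is largely exclusive, so their H3K27me3 share is not independent of that choice. The 16 exceptions included 2 wide members in intron 3 of HMGA2, a chromatin architectural gene of fetal tissue and tumours, which measured 30955 and 37058 bp with H3K36me3 over 85.7% and 96.3% of their length and an H3K27me3 fold enrichment of 2.76 and 2.87. Others lay in WLS, which encodes the carrier of Wnt ligands, with an H3K27me3 fold enrichment of 3.18, in GALNT7 (3.78), and at 2 places in ZCCHC14 (3.11 and 2.47). Some lay outside coding genes with low H3K4me1 fold enrichment, on chromosomes 1 (2.12), 9 (2.83) and Y (2.55). Outside coding genes on chromosomes 1 and 7, others had 5.44 and 6.57. On chromosome 1, an interval under several overlapping gene annotations, NBPF10 among them, had 2.21. No filter for repeated sequence was applied here. With H3K27me3 past the study's limits the shares were 0.120% (0.0467 to 0.308%, 4 members), 0.337% (0.245 to 0.462%) and 0.795% (0.655 to 0.964%), and the interval of the members then overlapped that of the group inside coding genes. When only H3K4me3 past the study's limits was barred, 1.17% (0.861 to 1.58%) of the members so chosen had H3K27me3. The interval names in the H3K27me3 list carry no cell line name, unlike those of the 5 other lists, so its cell line rests on the label alone.

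H3K9Ac was found at 1851 members (55.6%, 53.9 to 57.2%), against 41.5% of the intervals in each comparison group. At equal width the shares lay close together. In members, inside coding genes and outside them they were 17.0%, 15.7% and 19.7% under 1 kb, 43.6%, 44.3% and 44.6% at 1 to 2 kb, 76.1%, 77.2% and 76.6% at 2 to 4 kb, and 97.4%, 95.9% and 97.5% above 4 kb. Weighted to the widths of the members, their H3K9Ac share exceeded that of the intervals inside coding genes by 0.228 percentage points in place of 14.1. At equal H3K4me1 fold enrichment the members had the higher share, with 20.9% against 12.8% and 14.5% in the lowest quartile class and 92.1% against 82.6% and 79.8% in the highest. Members with H3K9Ac were wider (median 3027 bp) than members without it (965.5 bp). Among members with both, the fold enrichments of H3K4me1 and H3K9Ac were correlated (Spearman correlation 0.58, n = 1851 intervals from the same 2 libraries). H3K36me3 lay at the midpoint of 43.5% (41.0 to 46.1%) of the members with H3K9Ac there and 72.3% (70.2 to 74.3%) of those without. By width these shares were 86.1% and 88.0% under 1 kb, 63.5% and 69.4% at 1 to 2 kb, 40.4% and 49.8% at 2 to 4 kb, and 26.7% and 47.8% above 4 kb. The gap was widest above 4 kb. Members whose midpoint lay in H3K36me3 had H3K9Ac anywhere along them in 42.9% (40.7 to 45.1%), close to the 41.5% of the comparison groups, and members that H3K36me3 touched only away from the midpoint had it in 74.4% (72.0 to 76.6%). The former were narrower (median 1226 bp), and by width the 2 shares were 16.9% and 17.7% under 1 kb, 41.7% and 47.5% at 1 to 2 kb, 72.7% and 78.9% at 2 to 4 kb, and 93.9% and 99.02% above 4 kb.

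Strong H3K9Ac away from H3K4me3 was more frequent in the members. The H3K9Ac list held 12720 intervals past the study's limits, of which 265 touched no H3K4me3, and 111 of the 265 touched a member. Such an interval was found at 122 members (3.66%, 3.08 to 4.36%), at 0.222% (0.150 to 0.327%) of the intervals inside coding genes and at 0.623% (0.501 to 0.775%) of those outside. At a width of 4 to 8 kb the shares were 7.38% (5.38 to 10.04%), 0.976% (0.474 to 2.001%) and 4.84% (3.47 to 6.72%). At 8 to 16 kb they were 21.8% (16.6 to 28.1%), 6.82% (3.63 to 12.45%) and 10.8% (6.44 to 17.7%), so the interval of the members overlapped that of the group outside genes in both classes and lay above that of the group inside genes. Above 16 kb the counts were 32 of 55, 1 of 11 and 12 of 22. The strongly acetylated members were less often intragenic than the members as a whole, with 59 of 122 inside a coding gene. In members outside coding genes the share was 12.2% (9.66 to 15.3%), in members inside them 2.10% (1.63 to 2.69%). The 59 intragenic ones fell in 38 host genes, of which PCDH7 held 7, MPP7 and NSMCE2 5 each, and PPP3CA 4. The midpoint lay outside H3K36me3 in 92 of the 122 and inside it in 30, and among members above 4 kb the shares were 16.5% (13.5 to 19.98%) and 11.7% (8.16 to 16.5%). Neighbouring members share their H3K9Ac interval or its surroundings and are not independent, and the Wilson intervals do not cover this. This comparison was chosen after the values were seen.

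**Figure D3:**
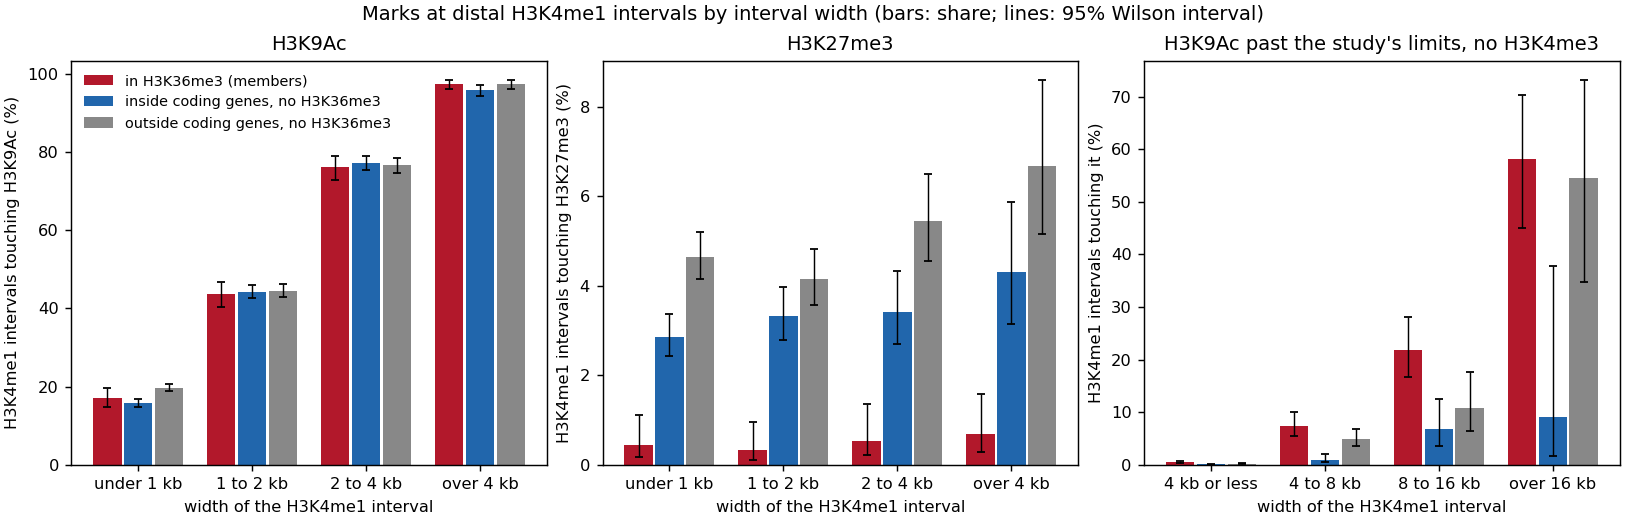
Percent of distal H3K4me1 intervals (y axes) that touch H3K9Ac, H3K27me3, or an H3K9Ac interval past the study's limits without H3K4me3, by the width of the H3K4me1 interval (x axes); bars are shares and lines 95% Wilson intervals. The intervals of the 3 groups overlap for H3K9Ac in each class from 1 kb upwards, the members are lowest for H3K27me3 (0.327 to 0.676%), and they reach 21.8% for strong H3K9Ac at 8 to 16 kb. The H3K27me3 share of members is not independent of H3K36me3, which the rule used.

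The 5 members with the highest H3K9Ac fold enrichment, from 13.8 to 18.1, all lay at H3K9Ac intervals that extended into H3K4me3, among them 1 in intron 4 of the cyclin D1 gene CCND1 (15.8) whose H3K9Ac interval of 16520 bp also held a coding TSS. Such intervals accounted for 20 of the 1851 members with H3K9Ac, and with H3K9Ac intervals free of H3K4me3 the share of members was 55.0%.

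CTCF was called at 601 members (18.0%, 16.8 to 19.4%), close to the 16.9% (16.2 to 17.6%) inside coding genes and below the 22.8% (22.1 to 23.5%) outside. In members, inside coding genes and outside them the shares were 16.2%, 19.4% and 25.8% under 1 kb, 15.03%, 13.6% and 18.3% at 1 to 2 kb, and 16.98%, 15.3% and 20.7% at 2 to 4 kb. Above 4 kb the share was 25.1% (22.1 to 28.4%) against 20.2% (17.7 to 23.05%) and 27.7% (24.7 to 30.8%), whose intervals overlapped. At the midpoint itself CTCF was less frequent in the members (7.66%, 6.80 to 8.61%) than inside coding genes (10.3%, 9.77 to 10.9%) or outside them (15.3%, 14.7 to 15.9%). The members were wider, CTCF at the midpoint was not set out by width, and the part of width in this difference was not tested. CTCF was more frequent at members with H3K9Ac (23.1%, 21.3 to 25.1%) than at those without (11.7%, 10.2 to 13.4%), and the intervals inside coding genes had nearly the same pair of values, 24.0% and 11.9%. The share rose along the gene from 11.9% (9.33 to 15.04%) of the members in its first 25% to 20.6% (17.9 to 23.5%) in its final 25%, and from 13.03% to 21.8% in the other intervals. The highest CTCF fold enrichments of members were 27.7 in ZC3H3, 24.9 in SEPTIN9, a cytoskeletal septin gene, 24.8 in TBC1D16 and 24.7 in the last exon of UPF1, a gene of nonsense-mediated decay. The CTCF core was found in 20.1% (17.2 to 23.4%) of the CTCF intervals at members, 17.5% (15.9 to 19.3%) of those at the intervals inside coding genes, 21.1% (19.6 to 22.6%) of those at the intervals outside them and 15.7% of all CTCF intervals.

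At the midpoint, the AP-1 motif was less frequent in the members than in the other distal intervals and more frequent than in H3K36me3 without H3K4me1. A window of 300 bp held a match in 14.95% (13.8 to 16.2%) of the members, 21.7% (20.9 to 22.5%) of the intervals inside coding genes and 22.7% (22.0 to 23.5%) of those outside. The share was 4.36% (4.14 to 4.59%) of the 31471 H3K36me3 intervals without H3K4me1. The difference was found in the narrower intervals, with 14.6% (12.4 to 17.0%), 22.7% (21.6 to 23.9%) and 23.5% (22.4 to 24.6%) under 1 kb and 17.4% (15.1 to 20.02%), 25.9% (24.5 to 27.4%) and 26.5% (25.1 to 27.9%) at 1 to 2 kb. Above 2 kb the intervals of the members and of those inside coding genes overlapped, with 14.9% and 16.4% at 2 to 4 kb and in 92 of 740 and 86 of 860 above 4 kb. Members whose midpoint lay in H3K36me3 had an AP-1 match in 13.4% (11.9 to 14.9%), and members whose midpoint lay outside it in 17.3% (15.4 to 19.4%). This split was chosen after the values were seen. At 1 to 2 kb the shares were 14.9% (12.3 to 17.9%) and 22.7% (18.4 to 27.8%), and in the 3 other width classes the intervals of the 2 sets overlapped. The TEAD motif (GGAATG) followed the same order less steeply, with 16.3% (15.1 to 17.6%), 19.4% (18.7 to 20.1%) and 20.4% (19.7 to 21.1%), and 14.0% in H3K36me3 without H3K4me1. By width the TEAD interval of the members lay below that of the group inside coding genes under 1 kb alone (14.6% against 19.6%), and above 4 kb the shares were 15.5% and 14.8%. The TCF/LEF motif differed little, with 4.74% (4.07 to 5.52%), 4.95% (4.57 to 5.37%) and 5.03% (4.67 to 5.43%), and 4.37% in H3K36me3 without H3K4me1, and its intervals overlapped in each width class. The letters AGATAA, a core of the GATA factors, were found in 16.2% of the members and 15.9% of the intervals inside coding genes. The forkhead motif (TGTTTAC) was found in 4.20% and 4.48%, the SP/KLF motif (CCCGCCC) in 4.35% and 4.52%, and the ETS motif (CCGGAAG) in 0.871% and 1.28%. Both strands were searched and overlaps between motifs were allowed. The median GC content of the windows was 45.0%, 46.0% and 47.3%, and 41.7% in H3K36me3 without H3K4me1. A match describes the sequence and does not show that a factor was bound.

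**Figure D4:**
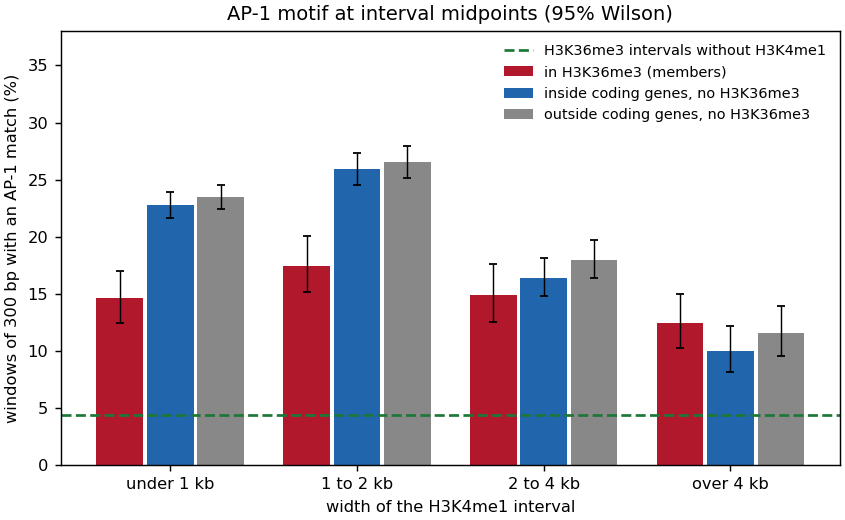
Percent of 300 bp midpoint windows with an AP-1 match (y axis) by the width of the H3K4me1 interval (x axis) for the members and both comparison groups, with 95% Wilson intervals; the dashed line is the share in H3K36me3 intervals without H3K4me1 (4.36%). Under 1 kb the members stand at 14.6% and the others at 22.7% and 23.5%, whereas above 4 kb the intervals of all 3 overlap.

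Single members with the highest H3K4me1 fold enrichment had partial H3K36me3 coverage and H3K9Ac. The highest value, 12.6, belonged to an interval of 3929 bp in intron 11 of SUFU, a negative regulator of Hedgehog signalling, on chromosome 10 of hg19 from 104386832 to 104390760. H3K36me3 covered 45.8% of it, and its H3K9Ac fold enrichment was 6.22. The next were in intron 6 of GNB1L (10.9) and intron 1 of CCDC57 (10.4), where a CTCF interval with a fold enrichment of 13.7 was also present. SMAD3, a transducer of TGF-beta signals, ranked 10 with a value of 9.44 in an interval of 8359 bp in intron 1 with H3K9Ac at 5.07. The widest members were 73781 and 55330 bp in intron 2 of PCDH7, 50020 bp in intron 1 of the kinase gene STK39 and 47313 bp in intron 2 of PPP3CA, the catalytic subunit of calcineurin.

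Members were spread thinly over hosts. Of the 1817 hosts, 1245 held 1 member, 325 held 2, 193 held 3 to 5, and 54 held more than 5. ZBTB20, a zinc-finger repressor gene, held the most with 22, followed by the scaffold gene MPP7 and the protocadherin gene PCDH7 with 18 each and by TCF7L2, VTI1A and NSMCE2 with 14 each. A group of 17 members on chromosome 11 from 5299948 to 5519786 lay under several overlapping gene annotations, so that its hosts are not independent. HBG2 and HBE1 held all 17 of them, and OR51B5 held 16. The group included 6 members with H3K9Ac and 0 with CTCF.

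PCDH7 and TCF7L2 carried their members in contrasting ways. In PCDH7 the 18 members covered 254 kb of a gene of 426437 bp, 16 of them touched H3K9Ac, 7 touched strong H3K9Ac without H3K4me3, and H3K36me3 lay over 55.3% of the gene in many short intervals. No H3K4me3 was called within 2 kb of a coding TSS of PCDH7, and the only H3K4me3 interval in the gene was one of 470 bp. In TCF7L2, H3K36me3 lay over 96.5% of the gene in 4 long intervals, with H3K4me3 at its promoter (fold enrichment 21.1). Its 14 members, of 300 to 15153 bp, lay in introns 4 and 5, with 6 and 8 in turn. Their H3K4me1 fold enrichment ran from 2.82 to 6.86, 8 touched H3K9Ac and 1 touched CTCF. The highest, of 15153 bp in intron 5, was fully covered by H3K36me3 and had an H3K9Ac fold enrichment of 5.20.

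**Figure D5:**
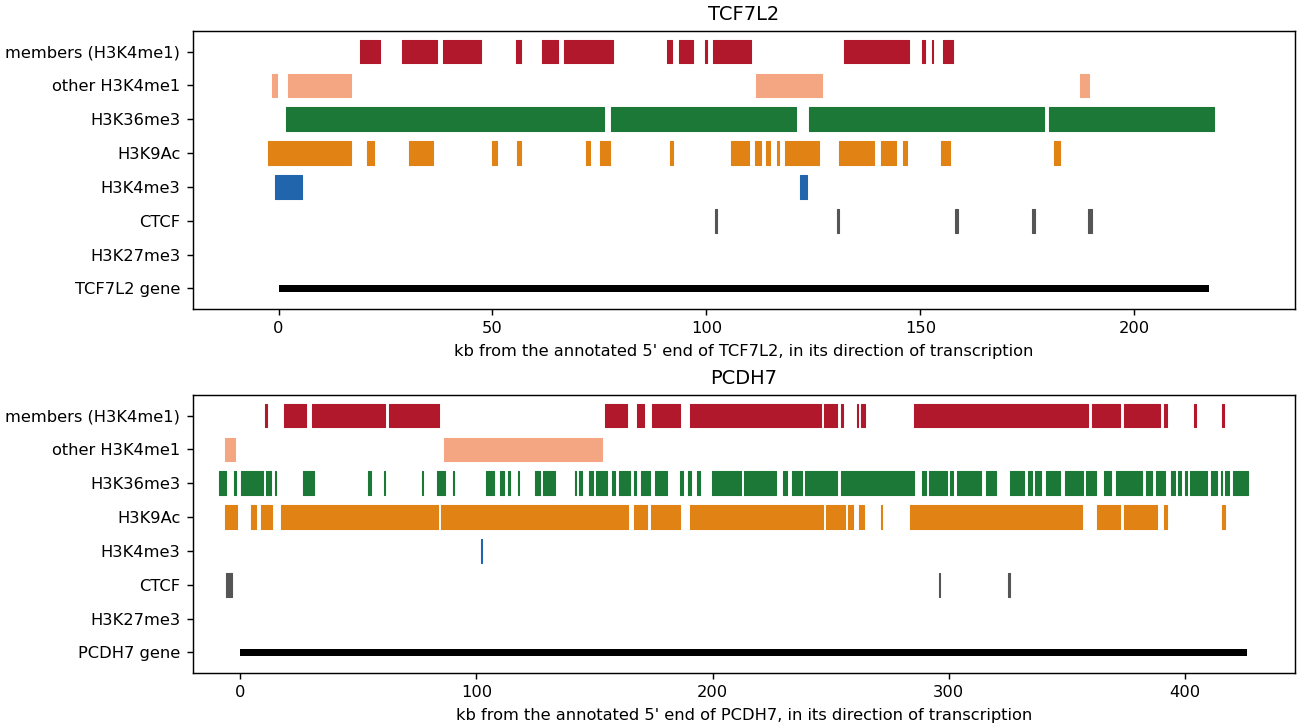
Intervals of each mark (rows) along TCF7L2 and PCDH7 against the distance in kb from the annotated 5′ end of the gene, in its direction of transcription (x axis), with the gene as a black bar. The 14 members of TCF7L2 lie on 3 of its 4 long H3K36me3 intervals, whereas the 18 members of PCDH7 lie on many short ones, and neither gene has an H3K27me3 interval.

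Among 7 gene lists of pathways of colorectal and chromatin biology, hosts were found in each, beside the 16.6% of long coding genes with H3K4me3 given above. Of 27 Wnt genes 6 held 22 members: besides TCF7L2 these included the negative regulators AXIN2 with 4 and RNF43 with 1, and the co-receptor LRP5 with 1. Of 25 receptor tyrosine kinase and MAPK genes 7 held 15 members, led by the receptor genes MET with 5, all in introns and with H3K4me1 fold enrichments from 2.99 to 3.47, and EGFR with 2. Of 20 TGF-beta and BMP genes 6 held 11, led by the receptor gene TGFBR2 with 4, and SMAD3 and the ubiquitin ligase gene SMURF2 with 2 each. Of 27 epithelial adhesion genes 10 held 11, with 2 in CDH1, the E-cadherin gene. Of 25 enzymes of H3K4 and H3K36 methylation 7 held 13, with 4 in the demethylase gene KDM5A. Of 24 elongation and splicing genes 3 held 5, of which 3 lay in ELL. Of 21 genes of metabolism and mTOR signalling 8 held 22, with 9 in RPTOR, a subunit of mTORC1, 3 each in ACACA and SREBF2 of lipid synthesis, and 2 in the amino acid transporter gene SLC7A5, of which the one in intron 1 measured 7147 bp with a fold enrichment of 7.90. These lists are short and hold long genes, and their shares are read only as counts.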

How the data were processed

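The authors deposited 1 broad peak list per mark from PIXUL-ChIP-seq in HCT116 cells, each from 1 library. Per the methods, reads were aligned to hg19 with BWA 0.7.12 and MACS2 called broad peaks with the broad cutoff set to 0.1. The labels' tool list names MACS 1.4.2 in place of MACS2, bcl2fastq 2.20.0.442 and SAMtools 0.1.19. The fold enrichment the authors deposited is a linear ratio over the peak caller's background, and both significance columns they deposited, a −log10 p-value and a −log10 q-value, describe the whole peak. The lists reach −log10 q-values near 1 and were used unfiltered. Depth is unknown, and it sets how many peaks are called and how wide they are.

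GENCODE 44 on hg19 gave 20162 protein-coding genes and 78564 TSS positions of coding transcripts. Overlap required 1 bp, and distance was measured from the edge of an interval. Shares carry 95% Wilson intervals for counting error only. Motifs were searched on both strands of 300 bp at each midpoint, and 1 of the 4 selected AP-1 windows is not reported here. Overlaps were tested on simulated data, where 500 of 500 planted overlaps were recovered, and were checked against bedtools 2.31.1. Python 3.11.15, pandas 2.3.3, scipy 1.17.1 and pyfaidx 0.9.0.4 were used.

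Members and gene lists were chosen with earlier results of these data known. Named members were the 10 highest in H3K4me1 fold enrichment, the 5 widest, the 5 highest in each of H3K9Ac, CTCF and H3K36me3, the 3 nearest on each side of the 5 kb limit, the 10 hosts with most members and up to 5 hosts per list. Members named for H3K27me3 or strong H3K9Ac were chosen after their values were seen. The alternatives were the study's limits for each mark, other TSS distances and TSS sets, other overlap rules, merging within 1 kb, width and fold enrichment classes, a motif window of 1000 bp and a promoter window of 2 kb. The study's limits were q-values under 0.001 with fold enrichments over 2 for H3K4me1 and H3K27me3, and 1e-10 and 5 for the other histone marks. No limits are stated for CTCF, to which 1e-10 and 5 were applied here.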

Additional observations from a re-analysis of the deposited data

How the results depend on the processing

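Of 101 values under alternatives, 46 stayed within 1.5 times the count or within the main 95% interval, and 55 moved. A reversal could be scored only for the differences in share between members and intervals inside coding genes, where 0 occurred. The main values were 3331 members, a median width of 1764 bp, a median H3K4me1 fold enrichment of 3.91, 84.5% inside coding genes, and H3K9Ac, CTCF and H3K27me3 at 55.6%, 18.0% and 0.480%. With H3K4me1 past the study's limits, 1966 members remained with a width of 2798.5 bp, a fold enrichment of 4.73, H3K9Ac at 76.7%, CTCF at 20.6% and 83.01% inside coding genes. With H3K36me3 past its limits, the 5 members had a width of 3726 bp, a fold enrichment of 4.40, H3K9Ac at 80.0%, CTCF at 60.0%, H3K27me3 at 0% and 60.0% inside coding genes. With H3K36me3 past the limits set for H3K4me1, 978 members had a width of 1632 bp, a fold enrichment of 3.69, H3K9Ac at 53.1%, CTCF at 21.3% and H3K27me3 at 0.818%. With H3K4me3 past its limits, which admits members near weak H3K4me3, H3K9Ac was 57.5%, CTCF 20.1%, H3K27me3 1.17% and the fold enrichment 3.96.

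Beyond 10 kb from a TSS the width was 1854 bp and 82.5% lay inside coding genes, and with gene 5′ ends alone 87.1% did. With the 5′ ends of all annotated transcripts, 1812 members had a width of 1901 bp and CTCF at 15.7%. With at least 50% covered by H3K36me3, 1987 members had a width of 1226 bp, a fold enrichment of 3.63, H3K9Ac at 43.3% and 87.2% inside coding genes. With the midpoint in H3K36me3, 1989 members had a width of 1226 bp, a fold enrichment of 3.62, H3K9Ac at 42.9% and 87.0% inside coding genes. Merging within 1 kb left all 7 values identical to the main ones, so it gave no separate check. These 7 are counted among the 46 that stayed. Past the study's limits, H3K9Ac was found at 4.20% and H3K27me3 at 0.120% of the members, and CTCF, past the limits for the other histone marks, at 11.98%, with H3K9Ac and CTCF at the midpoint in 43.7% and 7.66%.

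The H3K9Ac share of members exceeded that of intervals inside coding genes by 14.1 percentage points, by 0.228 within width classes and by 10.3 within fold enrichment quartile classes. The AP-1 difference, members minus intervals inside coding genes, was -6.75 points and -4.40 within width classes. In windows of 1000 bp the members' shares were 38.3% for AP-1, 14.9% for TCF/LEF, 4.32% for ETS, 13.6% for forkhead, 45.0% for GATA, 43.6% for TEAD, 11.1% for SP/KLF and 2.04% for the CTCF core, and AP-1 remained below the 45.2% inside and 46.0% outside coding genes. ETS and SP/KLF, lower in the members at 300 bp, changed order in windows of 1000 bp. ETS was then at 4.32% of the members and 3.57% of the intervals inside coding genes, and SP/KLF at 11.1% and 10.6%. The splits of AP-1 by width and by midpoint, and H3K9Ac without H3K4me3, were chosen after seeing the data. Other causes of these shifts were not tested. The depth of the libraries is unknown and limits which weak intervals are called. No paired analysis was possible because every mark was sequenced once.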

Other observations

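The share of distal H3K4me1 intervals that met the rule varied between chromosomes. It was highest on chromosomes 19 (20.4%, 17.6 to 23.4%), 16 (19.9%, 17.5 to 22.6%) and 17 (17.9%, 15.99 to 19.96%). It was lowest on X (5.15%, 3.52 to 7.499%), and the share on Y (5.26%) rests on 2 of 38 intervals. The strongly acetylated members without H3K4me3 lay on 21 chromosomes, with 20 of the 122 on chromosome 4 and 15 on chromosome 8. These chromosomes held 165 and 166 of all 3331 members. The counts include clusters in single genes, with 7 in PCDH7 and 4 in PPP3CA on chromosome 4 and 5 in NSMCE2 on chromosome 8. An annotated 5′ end of any transcript lay inside 11.8% (10.7 to 12.9%) of the members, against 5.40% (5.003 to 5.84%) of the narrower intervals inside coding genes without H3K36me3.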
